A study of Rattus norvegicus with 32 samples.

Results

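Striatal projection neurons carry dopamine and adenosine receptors whose signals meet on 1 second messenger, cyclic AMP (cAMP). In these cells the G protein alpha subunit encoded by Gnal couples the D1 dopamine receptor and the adenosine receptor of Adora2a to the adenylyl cyclase encoded by Adcy5, phosphodiesterases break cAMP down, and protein kinase A phosphorylates targets such as DARPP-32. The 9 genes described here are members of this chain and were taken by name from the gene column of the count files. They are the receptor gene Adora2a, the G protein genes Gnal and Gng7, Rgs9, Adcy5, the phosphodiesterase genes Pde10a and Pde1b, and the kinase target genes Ppp1r1b and Arpp21, which makes 9 of the 28914 gene names counted. All 9 passed the filter on low counts in each comparison below.

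RNA was measured in adult male Sprague-Dawley rats that had received 4 intraperitoneal injections, 2 h apart, of methamphetamine (METH, 10 mg/kg each) or of saline (Sal). The labels name no genetic change in either group, and tissue was collected 24 h after the last injection. The 32 libraries, from RNA depleted of ribosomal RNA, cover the nucleus accumbens (NAc), the subventricular zone (SVZ, beside the lateral ventricle), the dentate gyrus (DG) and Ammon's horn (CA), with 4 METH and 4 Sal libraries in each region. The NAc and SVZ were taken with a tissue puncher of 1 mm and the DG and CA by hand, so that neighbouring tissue can be included. The headers of the count files name the alignment file behind each library, and libraries whose names have the same stem are called a header set here. Whether such a set is a sequencing run or one of the batches of the study is not given in the sources used here. Total counts ranged from 11094002 to 21869773 per library, and levels are given in CPM, counts scaled to a sequencing depth common to all libraries by upper-quartile library sizes, of which 1 read makes 0.0442 to 0.0934.

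In all, 5 libraries were judged to stand apart from their region by marker genes, and several comparisons below are given with and without them. The other libraries were kept, though some of them also deviated in markers, such as DG Sal 2 (49.2 CPM of summed dentate granule markers) and CA METH 3 (876 CPM of summed striatal projection neuron markers). NAc METH 3 held 7.1 CPM of the D1 receptor gene Drd1, while the other 7 NAc libraries held 95.4 to 392.3. DG Sal 3 held 3.8 CPM of Slc17a7, the vesicular glutamate transporter of pallial excitatory neurons, while the other 7 DG libraries held 1080 or more, and its Drd1 level of 121 was above the 3.6 to 16.1 of the others. SVZ Sal 1, SVZ METH 2 and SVZ METH 4 held 935, 802 and 590 CPM of Prkcd, which marks thalamic neurons, against at most 198 in the other 5 SVZ libraries. The SVZ label could be checked against ependymal markers only in part. Over the 8 SVZ libraries the summed level of the 4 measured ependymal genes ranged from 2.27 to 107 CPM. In the other regions it ranged from 1.18 to 43.4. Dentate granule markers (5 genes, summed) did not bear out the DG and CA labels in saline. Their median was 102 CPM in DG Sal (37.9 to 232) and 255 CPM in CA Sal (70.8 to 438). In METH it was 344 CPM in DG and 129 CPM in CA. In bulk tissue, fewer cells of a type and less RNA per cell cannot be told apart.

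In the rn6 build, Ppp1r1b (chromosome 10, 86303727 to 86312762, plus strand) and Rgs9 (chromosome 10, 97509971 to 97582188, minus strand) share a chromosome, while Pde10a (chromosome 1, 52360296 to 52544450, minus strand) and Adcy5 (chromosome 11, 68695839 to 68842320, minus strand) are among the longest of the 9. Gng7 (chromosome 7, 11582984 to 11628929, plus strand) and Pde1b (chromosome 7, 145117951 to 145145376, plus strand) lie far apart on chromosome 7. Adora2a (chromosome 20, 14265252 to 14282873, minus strand), Arpp21 (chromosome 8, 120323897 to 120446507, minus strand) and Gnal (chromosome 18, 62805410 to 62944630, plus strand) complete the set. Counts were summed over exons, and 0 other gene names had exons overlapping those of the members.

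Because cAMP acts on transcription through CREB, which binds the cAMP response element TGACGTCA and its half-site TGACG, the promoters of the members were searched for both on either strand. RefSeq promoters of the GRCr8 build, 250 bases before to 50 after a start site, were held for 6 members (7 promoters, 2 of them of Pde10a). Ppp1r1b, Pde1b and Adora2a had no entry. The full element was in none of the 7 and in 1.83% of the 33469 promoters of the table. The half-site, which lies within the full element, was in 1 of the 7, the first Pde10a promoter, and in 21.2% of all promoters. There it occurs at -179 and -104 relative to the start, and 4.96% of all promoters hold 2 or more. The Pde10a promoter (chr1:54765619-54765918, minus strand) is shown with its half-sites in capitals. The promoters of Rgs9 (chr10:94770338-94770637, minus strand) and Arpp21 (chr8:121031308-121031607, minus strand) are shown beside it, as the promoters held for the members with a large and a small difference between NAc and CA below.
Pde10a: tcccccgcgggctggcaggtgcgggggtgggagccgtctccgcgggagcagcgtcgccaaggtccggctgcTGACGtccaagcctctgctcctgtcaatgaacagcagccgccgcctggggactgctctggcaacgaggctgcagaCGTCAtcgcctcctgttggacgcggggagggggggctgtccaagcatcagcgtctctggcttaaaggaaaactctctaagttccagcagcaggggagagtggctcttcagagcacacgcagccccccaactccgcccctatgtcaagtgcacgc
Rgs9: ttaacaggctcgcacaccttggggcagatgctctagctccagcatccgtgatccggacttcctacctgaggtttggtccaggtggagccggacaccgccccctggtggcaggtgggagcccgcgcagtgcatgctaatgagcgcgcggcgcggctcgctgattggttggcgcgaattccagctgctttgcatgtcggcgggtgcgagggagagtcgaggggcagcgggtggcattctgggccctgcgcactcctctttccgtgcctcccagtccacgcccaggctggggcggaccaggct
Arpp21: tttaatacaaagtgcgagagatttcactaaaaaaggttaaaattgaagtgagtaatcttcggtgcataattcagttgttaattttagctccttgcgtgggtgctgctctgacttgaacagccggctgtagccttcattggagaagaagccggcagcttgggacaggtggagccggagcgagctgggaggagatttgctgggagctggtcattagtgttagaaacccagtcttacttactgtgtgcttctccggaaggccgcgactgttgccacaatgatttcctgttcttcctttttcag
A match says only that the letters are present, and absence in these windows says nothing of sites elsewhere.

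Per kilobase of exon, Ppp1r1b, which encodes DARPP-32, an inhibitor of protein phosphatase 1 once phosphorylated by protein kinase A, was the member with the highest mean level in NAc Sal, at 658 ± 549 CPM per kb (SD, n = 4). Pde1b (292 ± 190), Gng7 (271 ± 164) and Adcy5 (224 ± 137) came next, and Adora2a (98.2 ± 82.2) was the lowest of the 9. The SDs give the spread between libraries, over which the members varied together, and the order of the genes was not tested. In CA Sal the members ranged from 2.47 CPM per kb for Adora2a to 53.8 for Pde1b.

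The receptor gene and the genes of the G protein follow, in every saline library. Adora2a, which encodes an adenosine receptor that raises cAMP, had 529.65, 95.9, 254 and 96.7 CPM in the 4 NAc Sal libraries and 1.86, 17.9, 3.21 and 1.68 CPM in the 4 CA Sal libraries. It had 13.5, 194, 346 and 205 CPM in SVZ Sal and 2.49, 3.26, 128 and 2.17 CPM in DG Sal. The value of 128 is from DG Sal 3, and the 17.9 of CA Sal 2 came with 8.6 CPM of Drd2 against at most 3.5 in the other CA Sal libraries. Gnal, the G protein alpha subunit of the olfactory type, had 350.2, 139, 272 and 157 CPM in NAc Sal and 31.5, 35.5, 35.8 and 15.2 CPM in CA Sal. In SVZ Sal it had 109.8, 279.7, 295 and 250.3 CPM, and in DG Sal 28.5, 10.6, 175 and 5.95 CPM. The groups of NAc and CA did not overlap for either gene.

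Rgs9, a GTPase-activating protein that ends G protein signals, had 773, 111, 279.6 and 167 CPM in NAc Sal and 5.1, 16.4, 14.3 and 10.0 CPM in CA Sal. In SVZ Sal it had 13.1, 282, 543 and 434 CPM. In DG Sal the values were 11.9, 3.44, 144 and 73.2 CPM, and the last of them, DG Sal 4, was the library with the lowest level of 5 other members. Adcy5 had 1995, 561, 1169 and 612 CPM in NAc Sal and 131, 206, 167 and 169 CPM in CA Sal. Ppp1r1b had 2509, 467, 1097 and 505 CPM in NAc Sal and 59.4, 116, 58.4 and 92.8 CPM in CA Sal. In each of these genes NAc Sal 1 was the highest library of its region, and that held for 9 of 9 members.

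**Figure D1:**
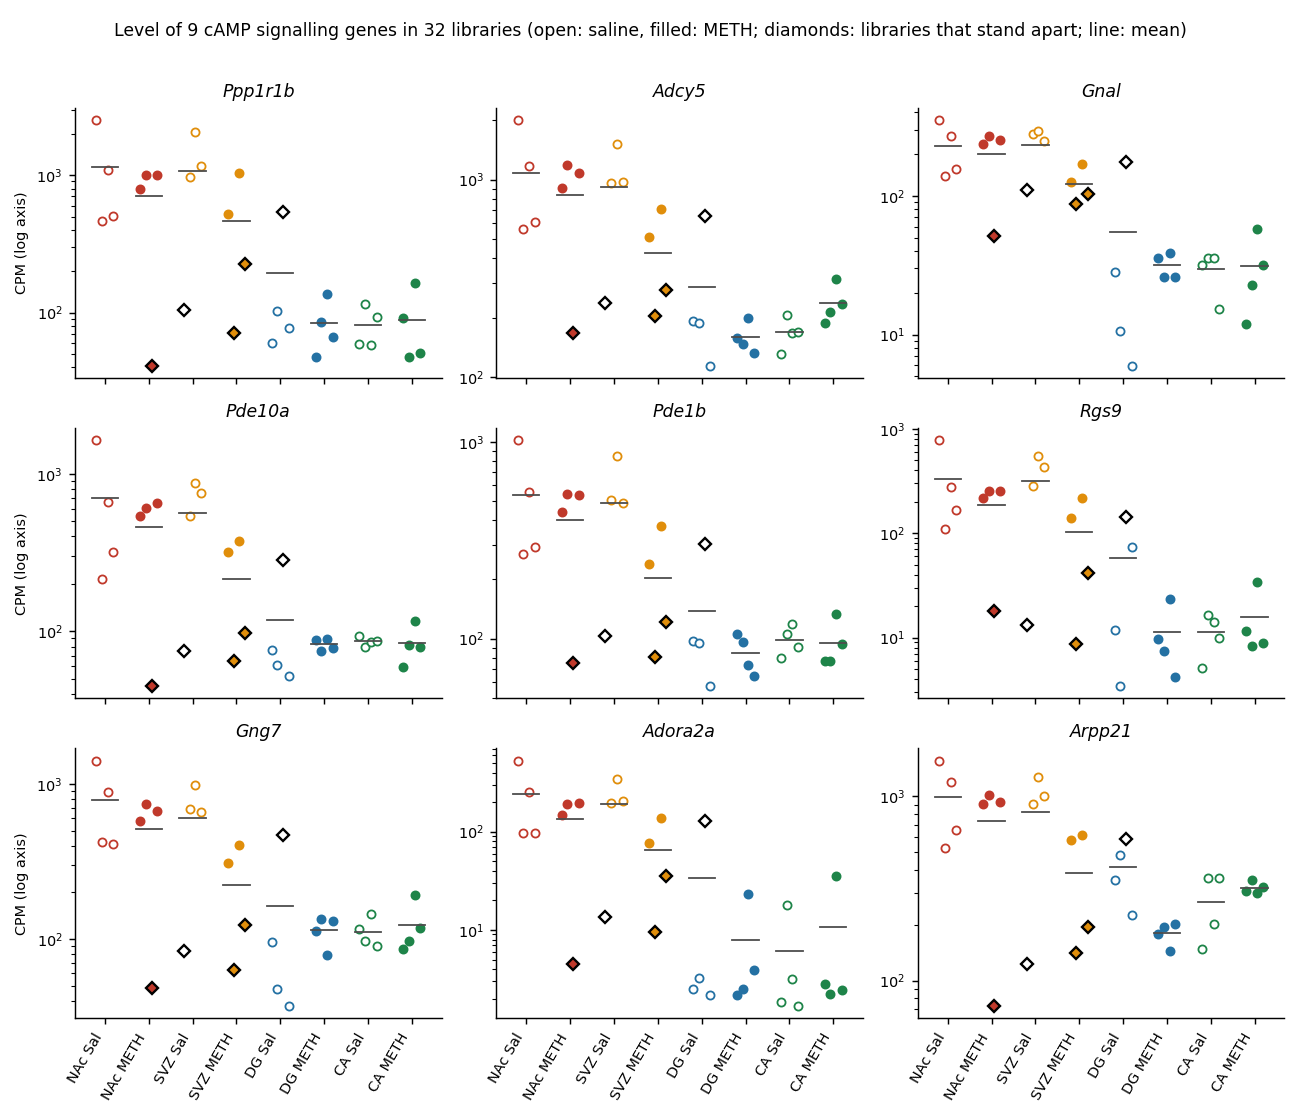
Level of each member in every library, in CPM on a log axis, by region and treatment (open circles saline, filled circles METH, diamonds the 5 libraries that stand apart, line the mean of 4). The lowest NAc value of each gene is NAc METH 3, and DG Sal 3 lies above the other DG libraries.

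To ask whether the saline libraries differ by region, each pair of regions was compared in its 8 libraries by edgeR's quasi-likelihood test. A gene was called where its p, adjusted by Benjamini-Hochberg over all genes tested and written FDR here, was under 0.01 and the fold above 2, and log2 fold changes are given ± SE. The members were higher in NAc than in CA: 6 of 9 were called, beside 1.01% of all genes called higher in NAc, and 9 of 9 had an unadjusted p under 0.05, beside 17.7%. In 9 of 9 members every NAc value lay above every CA value, beside 10.4% of all genes. The called members were Gnal (2.97 ± 0.37, FDR 0.00385), Rgs9 (4.87 ± 0.69, FDR 0.00589), Gng7 (2.82 ± 0.41, FDR 0.00629), Adcy5 (2.7 ± 0.40, FDR 0.00671), Ppp1r1b (3.82 ± 0.58, FDR 0.00704) and Pde1b (2.45 ± 0.41, FDR 0.00946). Adora2a had the widest difference with 5.34 ± 0.96 and an FDR of 0.0117, Pde10a had 3.04 ± 0.57 and an FDR of 0.0135, and Arpp21 had the smallest with 1.90 ± 0.41 and an FDR of 0.0200. Pde10a encodes a phosphodiesterase of both cAMP and cGMP that is abundant in striatal neurons, and Arpp21 encodes a cAMP-regulated phosphoprotein also found in pallial neurons.

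These NAc and CA libraries are paired by replicate number, and with the replicate number as a block 0 of 9 members were called, with log2 fold changes of 1.86 to 5.68 and an FDR of 0.0106 (Gnal) to 0.0733 (Arpp21). In 1 fit of all 16 saline libraries 0 were called as well, with an FDR of 0.0314 (Adcy5) to 0.063 (Arpp21). Leaving out 1 library at a time gave 0 to 7 called members, with 0 or 1 where NAc Sal 3 or any 1 of the 4 CA Sal libraries was left out, while DESeq2 called 9, beside 2.65% of all genes called higher by it. Within the header set that held both, 2 NAc libraries exceeded 1 CA library in 9 of 9 members, by 1.304 to 5.88 on the log2(CPM + 1) scale.

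In SVZ against CA, Gnal was the 1 called member (3.03 ± 0.39, FDR 0.00541), beside 0.441% of all genes called higher in SVZ. All 9 members had an unadjusted p under 0.05, beside 18.4%, with log2 fold changes of 1.68 (Arpp21) to 5.0 (Adora2a). For Gnal and Adcy5 every SVZ value lay above every CA value, beside 9.44% of all genes. Without SVZ Sal 1, 9 members were called, with log2 fold changes of 2.04 (Arpp21) to 5.4 (Adora2a), beside 2.55% of all genes called higher in that fit, and leaving out any 1 of the other 7 libraries gave 0. SVZ Sal 1 was set apart after seeing the data and was the lowest SVZ Sal library for every member. Leaving it out is therefore not independent of the members' own levels. With the replicate block 0 were called, as in the fit of 16 libraries, and Gnal then had an FDR of 0.0322 and 0.03 in turn. All SVZ libraries were taken as a header set of their own, although their file names begin as those of another set do. With the sets taken this way, set and region cannot be told apart here.

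The other pairs of regions in saline gave no called member with all libraries. In DG against CA, 0 members were called (0% of all genes) and Rgs9 alone had an unadjusted p under 0.05 (2.40 ± 1.00, FDR 0.588), beside 4.29%. Without DG Sal 3, 0 members were higher and 2 lower at that level, beside 3.7% and 3.41% of all genes. NAc against DG gave 0 called members (0% of all genes) and 7 with an unadjusted p under 0.05, beside 4.55%, with log2 fold changes from 1.27 (Arpp21) to 2.80 (Adora2a) over the 9. Without DG Sal 3 the same fold changes were 1.51 to 6.53, with an FDR of 0.0139 (Adora2a) to 0.157 (Rgs9), and 0 were called. SVZ against DG gave 0 called members (0%), 4 at an unadjusted p under 0.05, beside 5.74%, and 6 called members without SVZ Sal 1 and DG Sal 3, beside 0.6% of all genes in that fit. For every member SVZ Sal 1 was the lowest SVZ Sal library and DG Sal 3 the highest DG library. That fit is therefore not independent of the members' own levels.

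Between NAc and SVZ the saline libraries differed by less than their spread. Of the 9 members 0 were called (0% of all genes) and 0 had an unadjusted p under 0.05, beside 3.35%, by edgeR and by DESeq2. Log2 fold changes lay between -0.05 (Gnal) and 0.35 (Gng7), with standard errors of 0.375 to 0.934. NAc against the other 3 regions together gave 0 called members (0%) and 0 at an unadjusted p under 0.05, beside 4.81%, by edgeR and by DESeq2.

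**Figure D2:**
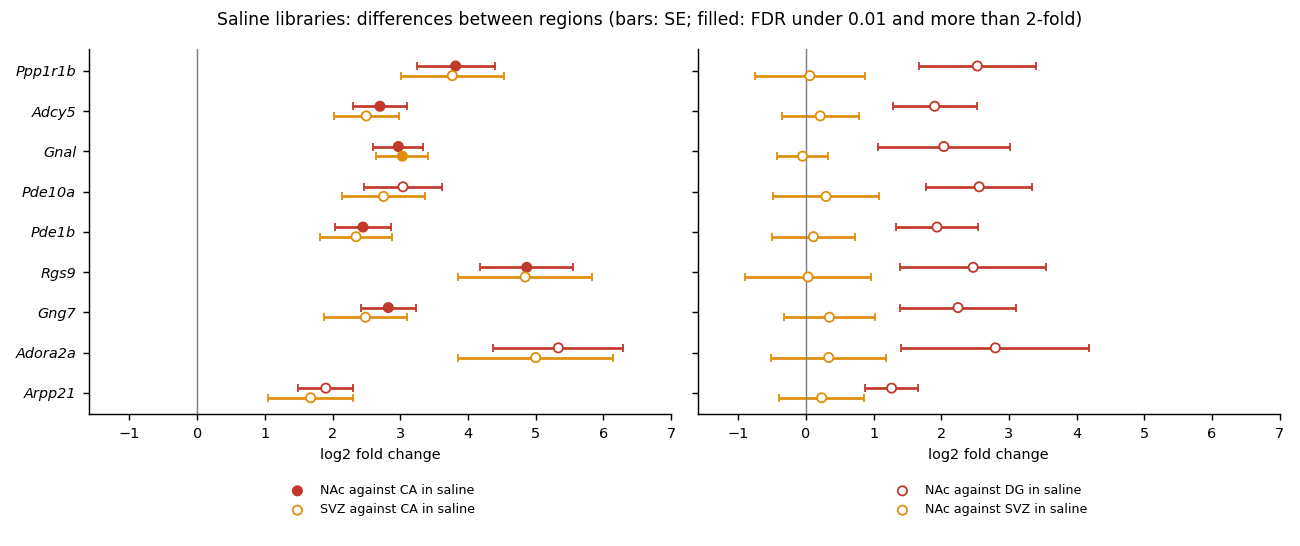
Log2 fold change of each member between regions in the saline libraries, with SE; filled points have an FDR under 0.01 and more than 2-fold. Differences of NAc and SVZ from CA lie between 1.68 and 5.34, while those of NAc from SVZ lie between -0.05 and 0.35.

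In the METH libraries 1 library, NAc METH 3, decided most calls between regions. NAc against DG gave 1 called member, Gnal (2.69 ± 0.46, FDR 0.00881), beside 1.04% of all genes, and 9 at an unadjusted p under 0.05, beside 15.1%. For Gnal the NAc values of 51.7 to 268 CPM lay above the DG values of 25.9 to 38.6 CPM, beside 9.24% of all genes. NAc against CA gave 0 called members, beside 0.52% of all genes, and 8 at an unadjusted p under 0.05, beside 15.6%. Without NAc METH 3, 9 members were called against DG, beside 2.46% of all genes called higher in that fit, and 8 against CA, beside 2.01%, while leaving out any 1 of the other libraries gave 0 in both. NAc against SVZ gave 0 called members (0%) and 0 at an unadjusted p under 0.05, beside 8.73%, by edgeR and by DESeq2, and 7 at an unadjusted p under 0.05, beside 9.64%, without NAc METH 3, SVZ METH 2 and SVZ METH 4. NAc METH 3 was set apart by its Drd1 level, which varied with the members over the 32 libraries (r 0.976), so leaving it out is not independent of the members' own levels. The same holds for SVZ METH 2 and SVZ METH 4, the lowest SVZ METH libraries for every member.

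The central question of the study is what METH changes in each region 24 h later. A call needed an FDR under 0.01 and a fold above 1.5, and 0 of 9 members were called in the NAc, SVZ, DG or CA, beside 0% of all genes in each. In the NAc 0 members had an unadjusted p under 0.05 by edgeR and by DESeq2, beside 0.968% of all genes lower after METH. Ppp1r1b had 791, 1007, 40.8 and 996 CPM in NAc METH against the 2509, 467, 1097 and 505 CPM of NAc Sal. Adora2a had 149, 191, 4.56 and 194 CPM after METH. In both genes 3 METH values lay inside the range of saline and the fourth, NAc METH 3, lay far below it, and that library was the lowest of the 8 for 9 of 9 members.

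All 9 NAc fold changes were below 0, while 42.2% of all genes had one below 0, and they ran from -0.82 ± 0.92 (Adora2a) to -0.15 ± 0.49 (Gnal). Without NAc METH 3 they ran from -0.42 (Adora2a) to 0.17 (Gnal). In the 1 header set that held both treatments, 2 METH and 2 Sal libraries could be compared. The METH mean lay above the Sal mean in 9 of 9 members, by 0.10 to 0.31 on the log2(CPM + 1) scale. The single values interleaved: Ppp1r1b had 791 and 1007 CPM in NAc METH 1 and 2, and 1097 and 505 CPM in NAc Sal 3 and 4. With the header set as a factor 8 of 9 fold changes were above 0 (0.05 to 0.26). That fit takes the treatment difference from those same libraries. Without NAc Sal 1 the 9 fold changes ran from -0.16 (Gng7) to 0.22 (Pde10a), with 6 above 0. With the RNA integrity number as a covariate they ran from -2.35 (Adora2a) to -1.03 (Gnal), with 7 at an unadjusted p under 0.05, beside 4.96% of all genes lower in that fit, and 0 called. With 2 RUVr factors (factors of unwanted variation estimated from the residuals) 8 were lower at that level, beside 6.0% of all genes, and 0 were called. The summed level of 4 astrocyte markers was 1386 to 1505 CPM in NAc Sal and 1683 to 3123 CPM in NAc METH, without overlap, and its part in the members' values was not tested.

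In the SVZ the members had lower fitted levels after METH, and Gnal alone had an unadjusted p under 0.05, beside 1.39% of all genes lower. Gnal had 126, 87.8, 169 and 102 CPM in SVZ METH against 109.8, 279.7, 295 and 250.3 CPM in SVZ Sal (log2 fold change -0.93 ± 0.34, FDR 0.979). Without SVZ Sal 1 alone that gene had a log2 fold change of -1.17 (FDR 0.270), and 7 of 9 members were lower at an unadjusted p under 0.05, beside 7.08% of all genes lower in that fit. With 2 RUVr factors 9 of 9 were, beside 9.52%, and by DESeq2 4 were, beside 2.35%. With the METH libraries of the same library number summed 0 members were, beside 0.385%, as with the replicate block, beside 0.571%. Ppp1r1b had 522, 70.5, 1029 and 225 CPM after METH and 105, 977, 2067 and 1165 CPM after saline. The 3 lowest SVZ libraries were SVZ METH 2, SVZ METH 4 and SVZ Sal 1 in 9 of 9 members, and SVZ Sal 3 was the highest in 9 of 9. The groups overlapped in 9 of 9 members.

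The 9 SVZ fold changes ran from -1.61 ± 1.14 (Rgs9) to -0.93 (Gnal), while 47.1% of all genes had one below 0. Without the 3 libraries, 3 Sal and 2 METH remained, the fold changes ran from -1.20 (Rgs9) to -0.79 (Arpp21), 8 of 9 members had an unadjusted p under 0.05, beside 3.72% of all genes lower in that fit, and the lowest FDR was 0.623. The 3 left out were the lowest SVZ libraries for 9 of 9 members, so that fit is not independent of the members' own levels. Markers of other cells also differed in median between the SVZ groups: the summed level of 5 thalamic markers was 74.5 to 1769.6 CPM in Sal with a median of 166, and 127 to 1561 CPM with a median of 753 in METH. The summed level of 5 oligodendrocyte markers had medians of 7739 and 16678 CPM in the same order, and that of 13 striatal projection neuron markers had medians of 3374 and 1365 CPM. Their part in the members' values was not tested.

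In the DG, Arpp21 was the member with the clearest separation. It had 351, 479.8, 587 and 227 CPM in DG Sal and 179, 196, 145 and 204 CPM in DG METH. Every METH value lay below every Sal value, a separation that 3.66% of all genes showed. The log2 fold change was -1.17 ± 0.27 (FDR 0.176), and Arpp21 was the 1 member with an unadjusted p under 0.05, beside 6.42% of all genes lower. Without DG Sal 3 it was -0.93 (FDR 0.178), and DESeq2 gave an FDR of 0.00305 for it with all 8 libraries and called it, beside 0.58% of all genes called lower by that tool. The summed level of 5 dentate granule markers ranged from 37.9 to 232 CPM in DG Sal and from 86.1 to 454 CPM in DG METH, while that of 4 astrocyte markers ranged from 1396 to 1843 CPM in DG Sal and from 2019 to 2229 CPM in DG METH, without overlap. The part of either in the Arpp21 values was not tested. The headers give DG Sal 1 and 2 the library numbers 20 and 21. In the NAc and CA those numbers belong to METH 1 and 2. DG METH 1 and 2 carry 14 and 15, which belong to Sal 1 and 2 there. Libraries were grouped by their labels in every DG comparison, and whether these treatments were exchanged was not tested. The separation of Arpp21 depends on the labels. With these libraries exchanged, its values would be 179 to 587 CPM in Sal and 145 to 479.8 CPM in METH, with overlap.

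For most other members in the DG the direction depended on DG Sal 3, which was the highest of the 8 DG libraries for 9 of 9 members. With all libraries the 9 fold changes ran from -2.37 ± 1.05 (Rgs9) to -0.51 ± 0.52 (Pde10a), while 52.0% of all genes had one below 0. Without DG Sal 3, 6 of them turned above 0: Ppp1r1b (0.11), Gnal (1.11), Pde10a (0.42), Pde1b (0.06), Gng7 (0.96) and Adora2a (1.64). Of these, Gnal (FDR 0.360), Pde10a (FDR 0.254) and Gng7 (FDR 0.273) had an unadjusted p under 0.05. At that level 3 members were higher, beside 6.75% of all genes higher in that fit, and 1 (Arpp21) was lower, beside 7.12%. Gng7, a gamma subunit that pairs with the olfactory-type alpha subunit in striatal neurons, had 95.7, 47.7 and 36.9 CPM in the 3 remaining Sal libraries and 113, 136, 78.7 and 129.9 CPM in METH. Without DG Sal 3 no header set holds both treatments, so treatment and header set cannot be told apart in these values. DG Sal 3 was set apart in part by its Drd1 level, which varied with the members over the 32 libraries (r 0.976). Leaving it out is therefore not independent of the members' own levels.

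With DG Sal 3 included the direction was the other way. In the 1 header set with both treatments, DG METH 1 and 2 lay below DG Sal 3 in 9 of 9 members. The difference was -5.27 (Adora2a) to -1.58 (Pde1b) on the log2(CPM + 1) scale. DG Sal 3 is the only saline library of that set. A fit with the set as a factor takes the treatment difference from those same libraries alone, so it repeats this contrast. With the header set as a factor 9 of 9 members were lower after METH at an unadjusted p under 0.05, beside 5.41% of all genes lower, and 0 were called. Their log2 fold changes then ran from -5.79 (Adora2a), -4.08 (Rgs9) and -3.04 (Ppp1r1b) to -1.61 (Pde1b), with an FDR of 0.0753 (Pde10a) to 0.433 (Rgs9). With 2 RUVr factors 4 members were lower at that level, beside 9.18%, and 0 were called.

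In the CA, Adcy5 was the 1 member with an unadjusted p under 0.05, beside 4.37% of all genes higher after METH. It had 131, 206, 167 and 169 CPM in CA Sal and 187, 214, 313 and 236 CPM in CA METH (log2 fold change 0.50 ± 0.18, FDR 0.669). The groups overlapped, since CA Sal 2 lay above CA METH 1. Without CA METH 3 the fold change was 0.33 (FDR 0.834). CA METH 3 was the highest of the 8 CA libraries for 8 of 9 members, and its summed level of striatal projection neuron markers was 876 CPM, against 308 to 525 in the other 7. Of the 9 fold changes, 7 were above 0, and without that library those of Ppp1r1b, Gnal, Rgs9, Gng7 and Adora2a fell below 0.

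**Figure D3:**
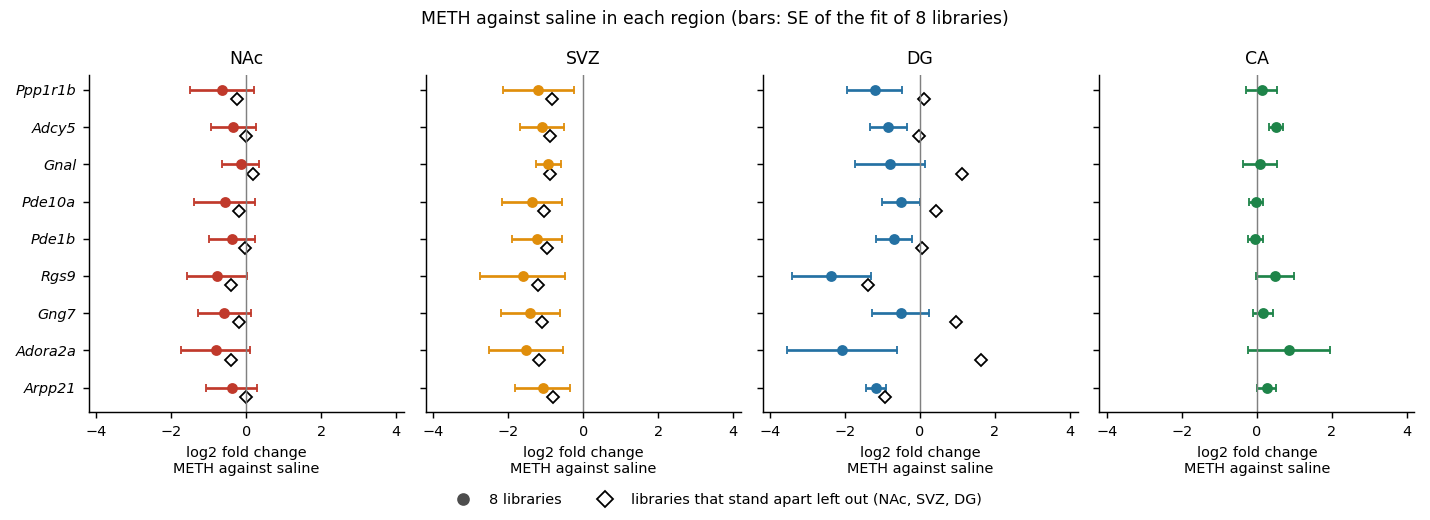
Log2 fold change of METH against saline for each member in each region; circles are fits of 8 libraries with SE, and open diamonds leave out the libraries that stand apart (none in the CA). In the DG, 6 of 9 diamonds lie above 0 while 9 of 9 circles lie below it.

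The METH effects were also compared between regions as an interaction, in 1 fit of all 32 libraries. No member was called in any of the 6 pairs by edgeR or DESeq2, beside 0% of all genes in 5 pairs and 0.0124% in DG against CA. At an unadjusted p under 0.05 there was 1 member, Adcy5 in SVZ against CA (-1.601 ± 0.78, FDR 0.980), beside 3.79% of all genes. In the other pairs 0 members reached it, beside 1.54% (NAc and SVZ), 9.3% (NAc and DG), 1.18% (NAc and CA), 9.99% (SVZ and DG) and 12.9% (DG and CA). DESeq2 gave 1 member at that level in SVZ against CA and 1 in DG against CA, for which no share of all genes is given.

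The members were then set against 13 markers of striatal projection neurons in the same library, as the difference of the log2(CPM + 1) of a member and the median of the markers. This is a description with no test. Over the 8 NAc libraries the SD of that difference was smaller than the SD of the level itself in 9 of 9 members, for example 0.29 against 1.07 for Adcy5. The same held for 8 of 9 members in the SVZ, 7 in the DG and 3 in the CA. The median over the members of METH minus saline was -0.84 for the level and -0.46 for the difference in the NAc. It was -1.21 and -0.20 in the SVZ, -0.54 and 0.38 in the DG, and 0.10 and -0.27 in the CA. The marker median itself gave METH minus saline differences of -0.38, -1.01 and -0.91 in the NAc, SVZ and DG and of 0.36 in the CA, between group means.

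**Figure D4:**
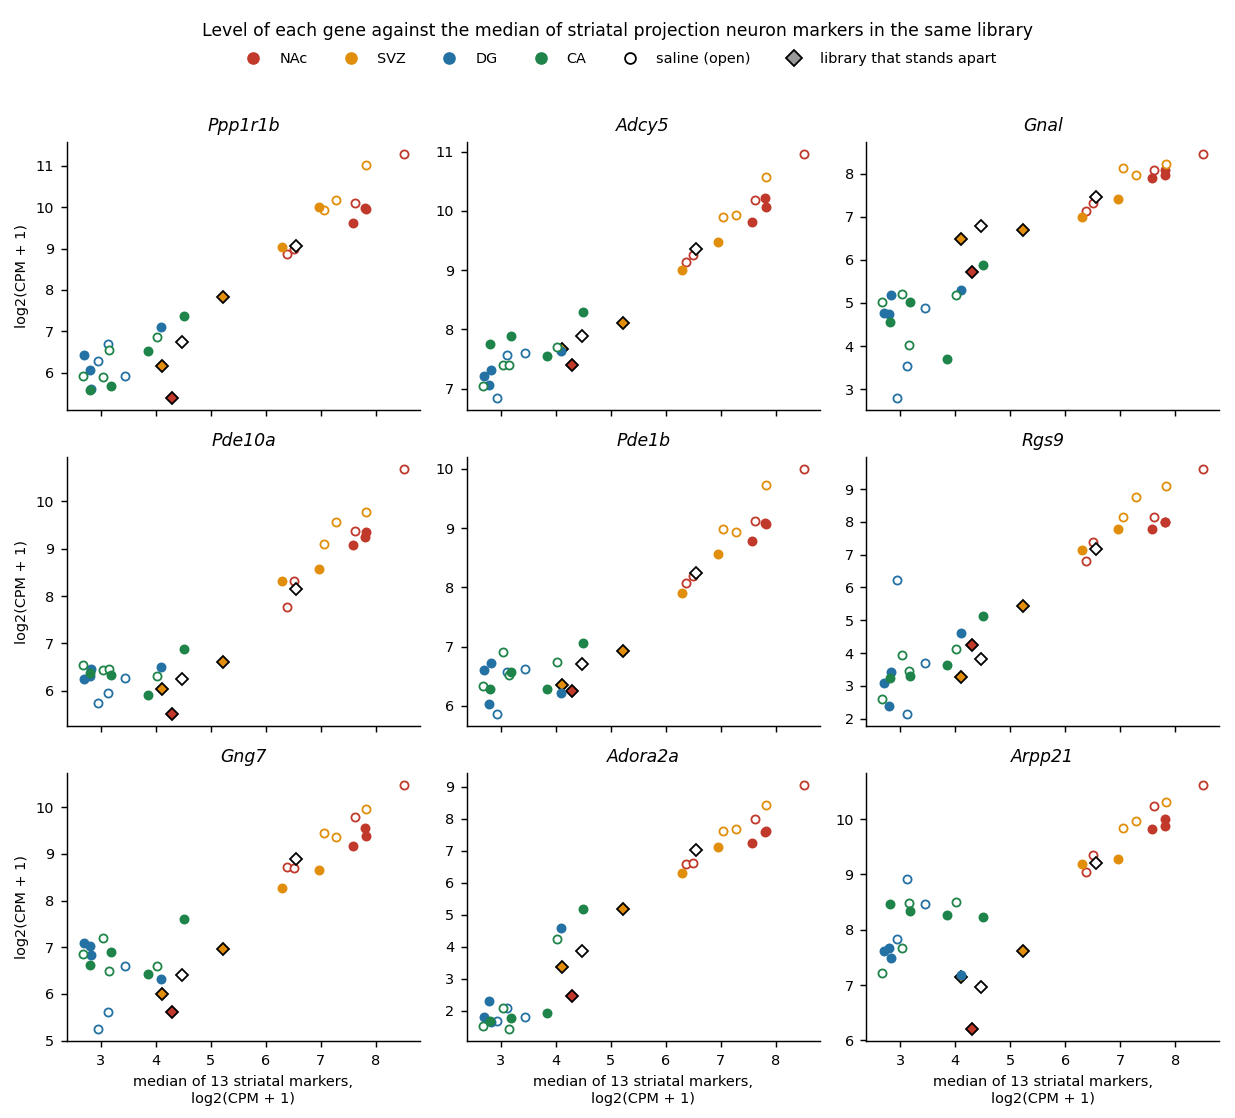
Log2(CPM + 1) of each member against the median log2(CPM + 1) of 13 striatal projection neuron markers in the same library (colours are regions, open symbols saline, diamonds libraries that stand apart). DG Sal 3 lies among the NAc libraries, and Arpp21 is higher in most DG and CA libraries than in the 3 SVZ libraries and the 1 NAc library that stand apart.

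Among themselves the members varied together: the Pearson r of a member with the mean z-score of the other 8 over the 32 libraries ran from 0.858 (Arpp21) and 0.883 (Gnal) to 0.988 (Adcy5). These r values are descriptions, since the libraries share regions and dissections. Of 14450 genes with a mean of at least 1 CPM, the 10 genes outside the set most like the mean z-score of the members were Ankk1 (0.981), Gpr6 (0.981), Tbc1d10c (0.980), Rarb (0.978), Drd1 (0.976), Sh3rf2 (0.972), Rps6ka5 (0.971), Drd2 (0.966), Mme (0.964) and Cbr3 (0.962). Gpr6, Rarb, Drd1 and Drd2 are among the 13 striatal markers. Tbc1d10c is a low gene, with a mean of 7.23 CPM in NAc Sal and 0.0754 CPM in CA Sal.

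Of 53 further genes of the cAMP chain, 51 were tested, and 2 (Arpp19 and Rgs7bp) were not analysed here. In NAc against CA in saline 6 were called higher and 0 lower, beside 1.01% and 0.83% of all genes. These were the dopamine receptor genes Drd1 (4.66 ± 0.56) and Drd2 (5.41 ± 0.73), the orphan receptor gene Gpr6 (4.96 ± 0.69), Ric8b (1.77 ± 0.21), a chaperone of the olfactory-type alpha subunit, and the phosphodiesterase genes Pde7b (2.52 ± 0.40) and Pde8b (1.52 ± 0.23), each with an FDR under 0.01. With the replicate block 0 of the 51 were called in this comparison, with an FDR of 0.0144 (Pde7b) to 0.0262 (Gpr6) for these 6 genes, and 0 were called in the fit of 16 libraries. In SVZ against CA, Pde1c (1.74 ± 0.15) and Pde7b (2.40 ± 0.26) were called higher, beside 0.441% of all genes, and 0 lower. In METH, Ric8b was called higher in NAc than in DG (1.54 ± 0.19) and CA (1.38 ± 0.22), and Adcy1, a calmodulin-stimulated cyclase, was called lower than in CA (-1.89 ± 0.31), beside 1.04% (NAc above DG), 0.52% (NAc above CA) and 1.22% (NAc below CA) of all genes. With the replicate block 0 of the 51 were called in these 3 comparisons too. With all libraries, no gene of the list was called in the other 6 region comparisons or in the 6 interactions. Without the libraries that stand apart, 5 were called higher in SVZ against DG and 11 in SVZ against CA in saline. In METH 12 were called higher in NAc against DG, 11 in NAc against CA and 1 in NAc against SVZ. In NAc against CA 3 were called lower. Shares of all genes called higher in these fits are given with the members above, except for NAc against SVZ. No share is given for that count of 1 or for the 3 called lower. These 2 counts are therefore not read against all genes. Drd1, which set NAc METH 3 apart, is in the list.

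After METH 0 of the 51 were called in any region, and at an unadjusted p under 0.05 there were 0 higher and 1 lower in the NAc, beside 2.42% and 0.968% of all genes. There were 4 and 8 in the DG (6.35% and 6.42%), 2 and 4 in the CA (4.37% and 2.79%) and 0 and 2 in the SVZ (1.19% and 1.39%). The 3 with the lowest p in the DG were Prkar2b, a regulatory subunit of protein kinase A (-1.25 ± 0.24, FDR 0.162), Rgs4 (-2.27 ± 0.50, FDR 0.172) and Adcy9 (0.79 ± 0.21, FDR 0.219). In the CA and in the NAc it was Pkia, the kinase inhibitor, that had the lowest p, with -0.39 ± 0.10 (FDR 0.669) and -0.29 ± 0.09 (FDR 0.999). Next were Adcy7 (0.50 ± 0.18) and Akap5 (-0.31 ± 0.11) in the CA, and Prkacb (-0.17 ± 0.09) and Adcy1 (-0.60 ± 0.35) in the NAc. In the SVZ they were Pde7b (-0.76 ± 0.22), Gnb5 (-0.47 ± 0.20) and Adcy9 (-0.44 ± 0.20), with an FDR of 0.979 each. The median log2 fold change of the 51 was -0.09 in the NAc, -0.13 in the DG, -0.01 in the CA and -0.14 in the SVZ, beside 0.03, -0.01, 0.01 and 0.02 over all genes tested. For the 9 members the medians were -0.58, -0.84, 0.15 and -1.23 in the same order.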

How the data were processed

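The authors trimmed the reads with cutadapt 2.7, checked them with FastQC 0.11.4, mapped them to rn6 with STAR 2.5.2b and deposited counts of reads per gene and library, without normalization, from featureCounts 1.6.3, which ignored strand. No other data type was used.

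Here, counts were normalized by the upper quartile, filtered with filterByExpr and tested with edgeR's quasi-likelihood test (edgeR 4.0.16, limma 3.58.1, DESeq2 1.42.0, R 4.3.3), with Benjamini-Hochberg adjusted p-values over all genes tested. SE is the absolute log2 fold change over the square root of F. Levels are CPM over all 32 libraries, and log2 levels have a pseudocount of 1. The members and gene lists were chosen with earlier results of these data known. Genes named are the members, genes of the cAMP list that were called (or the 3 of lowest p) and the 10 genes most like the members. A library apart was judged by its markers after seeing the data. The procedure was run on simulated data with a spread common to all genes. That run does not cover the wider spread of the members here, and no result rests on it.

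Over 48 pairs of libraries of the same group, the chi-square of their counts divided by the number of genes was 15.4 to 178, above sampling noise. No label says that they come from separate animals, so p-values measure the spread between libraries. In 1 of 13 comparisons (NAc against CA in saline) deviations of libraries with the same replicate number correlated above 0.1 in every pair (r 0.11 to 0.25); the headers also give them the same library numbers, as they do for NAc and CA in METH, where r was -0.11 to 0.24. In the DG the numbers 20, 21, 14 and 15 are crossed between treatments relative to the NAc and CA, and in the SVZ 4 METH libraries carry 2 numbers. Alternatives were other normalizations, filters, tools and thresholds, joint fits, a replicate block, the RNA integrity number, RUVr factors (written anew), the header set (the stem of the alignment file name in a count file's header) and leaving out each library. Leaving out the libraries that stand apart or carry crossed numbers, summing those of the same number, and refitting the cAMP list with a block, in 1 fit of 16 or without the libraries apart, were added after seeing the data. Python 3.11.15 (pandas 2.3.3, numpy 2.4.6, matplotlib 3.10.9) drew the plots.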

Additional observations from a re-analysis of the deposited data

Results flagged for a closer look

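Of 72 sets of 4 libraries (9 members in 8 groups), 14 held 1 library far from the other 3, with a gap above Dixon's 95% critical share of the range (which chance passes in about 1 in 20 sets). The sets share libraries, so they are not independent. In DG Sal 3 the level was far above the other DG Sal libraries for Ppp1r1b (538 CPM), Adcy5 (655 CPM), Gnal (175 CPM), Pde10a (282 CPM), Pde1b (303 CPM), Gng7 (472 CPM) and Adora2a (128 CPM). In NAc METH 3 it was far below the other NAc METH libraries for Gnal (51.7 CPM), Rgs9 (18.1 CPM) and Arpp21 (72.7 CPM). CA METH 3 stood above its group for Rgs9 (34.3 CPM) and Adora2a (35.4 CPM). Adora2a also stood above its group in DG METH 3 (23.001 CPM) and CA Sal 2 (17.9 CPM).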

How the results depend on the processing

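Counts of called members changed between regions. NAc against CA in saline (6) fell to 0 in 1 fit of the 16 saline libraries and 0 with the replicate block, and was 0 to 7 with 1 library left out. SVZ against CA (1) was 8 by DESeq2, 0 in the fit of 16, 0 with the block, 8 at an FDR under 0.05, 9 without the library that stands apart and 0 to 9 with 1 left out. NAc against DG in METH (1) was 9 by DESeq2, 0 with the block, 6 at an FDR under 0.05, 9 without NAc METH 3 and 0 to 9 with 1 left out. NAc against CA in METH (0) was 6 by DESeq2, 4 at an FDR under 0.05, 8 without NAc METH 3 and 0 to 8 with 1 left out. SVZ against DG in saline (0) was 6 without the libraries that stand apart. After METH, DESeq2 called 1 member in the DG (Arpp21), and 0 were called under every other alternative run in the 4 regions. DESeq2 called 2.14% (SVZ against CA), 2.64% (NAc against DG in METH) and 1.71% (NAc against CA in METH) of all genes higher. Over the alternatives, those leaving out 1 library included, members at an unadjusted p under 0.05 after METH numbered 0 to 8 in the NAc, 1 to 9 in the DG, 0 to 2 in the CA and 0 to 9 in the SVZ. These ranges and the counts at an FDR under 0.05 stand without the share of all genes. They are not read as a result about the members. The replicate block changed no other call. The deviations of same-numbered libraries met the pairing criterion in NAc against CA in saline only. The cause of these changes was not tested.

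Log2 fold changes of METH against saline that changed sign were as follows. With the header set as a factor, the NAc values were 0.19 (Ppp1r1b), 0.25 (Adcy5), 0.26 (Gnal), 0.24 (Pde10a), 0.23 (Pde1b), 0.10 (Rgs9), 0.053 (Gng7) and 0.075 (Arpp21). Without the libraries that stand apart, Gnal was 0.17 in the NAc, and the DG values were 0.11 (Ppp1r1b), 1.11 (Gnal), 0.42 (Pde10a), 0.062 (Pde1b), 0.96 (Gng7) and 1.64 (Adora2a). The replicate block gave 0.44 (Gnal) and 0.39 (Gng7) in the DG and -0.016 (Ppp1r1b) and -0.051 (Gnal) in the CA. The 2 RUVr factors gave 0.40 (Gnal) and 0.29 (Gng7) in the DG, and the RNA integrity number gave 0.055 (Pde1b) in the CA. With 1 library left out at a time the ranges were, in the NAc, Ppp1r1b -0.91 to 0.047, Adcy5 -0.58 to 0.10, Gnal -0.33 to 0.17, Pde10a -0.88 to 0.22, Pde1b -0.60 to 0.10, Rgs9 -1.08 to 0.016, in the DG, Ppp1r1b -1.57 to 0.11, Gnal -1.18 to 1.11, Pde10a -0.75 to 0.42, Pde1b -0.95 to 0.062, Gng7 -0.84 to 0.96, Adora2a -3.59 to 1.64, and in the CA, Ppp1r1b -0.38 to 0.35, Pde10a -0.23 to 0.12, Pde1b -0.26 to 0.058, Gnal -0.42 to 0.36, Rgs9 -0.27 to 0.71, Gng7 -0.16 to 0.30, Adora2a -1.29 to 2.27. None of these values was called. The lowest member count in any library was 20 reads (Adora2a).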
